A study of Mus musculus with 2 samples.

Results

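The melanocortin receptors Mc3r and Mc4r and the accessory protein gene Mrap2 were followed across single nuclei of the mouse hypothalamus. They were taken by symbol from the gene table and account for 3 of its 32285 genes. The nuclei came from wild type male C57BL/6J mice aged 10 to 12 weeks, were sorted for the neuronal marker NeuN, and were sequenced as 1 pooled 10x library with 2 antibody hashtags. The hashtags carry the names ARC (arcuate nucleus) and PVH (paraventricular nucleus of the hypothalamus) in the gene table, while the sample labels name the ARC alone for both the cDNA and the hashtag library. The mice received no treatment that the labels name, and no label ties a nucleus to a mouse, so all nuclei together are 1 sample and no test between conditions was possible. Each value below is a sum of unique molecular identifiers (UMIs, each 1 counted molecule) with an exact 95% interval that covers counting error only.

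The melanocortin system links the arcuate nucleus with its targets. POMC neurons release α-MSH, which activates the receptors, and AGRP neurons release AGRP, which opposes it. MC4R couples to Gs and restrains food intake, in part through neurons of the paraventricular nucleus that depend on the transcription factor SIM1. MC3R is known from the arcuate nucleus, AGRP neurons included, and MRAP2 is a membrane protein that changes the signalling of MC4R and of the ghrelin receptor.

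On GRCm38, the assembly of the mm10 build that the labels name, Mc3r (ENSMUSG00000038537) covers positions 172248492 to 172251114 of chromosome 2 (plus strand), and Mc4r (ENSMUSG00000047259) covers positions 66857704 to 66860506 of chromosome 18 (minus strand). Both receptors have 1 exon in the GENCODE M21 annotation. Mrap2 (ENSMUSG00000042761) spans 39740 bases of chromosome 9 from 87144306 to 87184045 on the plus strand, with 6 exons once overlapping ones are merged. No annotated gene overlaps any of the 3. No source at hand says whether intronic reads were counted, so levels are compared within a gene and not between genes.

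Of 11409 barcodes, 10170 passed the study's filters, and the hashtags assigned 3767 nuclei to ARC and 3074 to PVH, at medians of 4827 and 5039 UMIs per nucleus. Clustering gave 13 neuron clusters and 1 non-neuronal cluster of 29 nuclei with the ARC hashtag, and 14 neuron clusters with the PVH hashtag. None of the 3 genes was among the variable genes used to cluster. The ARC-hashtag clusters named by their markers were AGRP-like (678 nuclei), SST-like (322), POMC-like (282), KNDy-like (211), GHRH-like (204), VMH-like (193) and dopaminergic-like (182). In the PVH-hashtag nuclei 6 clusters were Sim1-like (921 nuclei together) and 1 was dopaminergic-like (193). PVH cluster 1 passed the VMH markers but was led by Ebf2, Lhx6 and Cyp19a1 and is given by its number. PVH cluster 8 had 200 CPM (counts per 1e+06 UMIs of the group) of Sim1 but was led by genes that include Bdnf, a marker of another class, and stayed unnamed. ARC cluster 2 and PVH cluster 2 held 4 or more oligodendrocyte markers beside neuronal ones and were left unnamed too. ARC cluster 2 also passed the Sim1 markers. It held 171 of the 206 Sim1 UMIs of the ARC-hashtag nuclei (61.0 CPM) and 3 Mc4r UMIs (1.07 CPM), while PVH cluster 2 passed the markers of no neuron class.

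Both receptors were rarely detected, and Mrap2 was common. Among nuclei that passed the filters Mc3r had 66 UMIs in 65 nuclei, Mc4r had 45 UMIs in 44 nuclei, and Mrap2 had 2806 UMIs in 2246 nuclei. No nucleus held both receptors. In the 29 non-neuronal nuclei, whose median depth was 2562 UMIs, Mc3r and Mc4r had no UMI, which at 3 counts allows a share of up to 10.3%, so this group sets no useful background for the receptors. Mrap2 had a UMI in 1 of those nuclei (3.45%, interval 0.0873% to 17.8%), against 22.5% of ARC-hashtag neurons (21.1% to 23.8%) at a median of 4833 UMIs.

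The ligand transcripts were spread over all clusters. Agrp was at 99.6 to 287 CPM in the 28 clusters and had a UMI in 54.0% of ARC-hashtag neurons, 54.1% of PVH-hashtag neurons and 44.8% of the non-neuronal nuclei. Its level in the non-neuronal nuclei, 279 CPM (179 to 416), was close to the 287 CPM (270 to 305) of the AGRP-like cluster, which was named against other neurons. The part of RNA outside the nuclei in the counts of the members was not tested.

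Mc3r was higher in the nuclei with the ARC hashtag than in those with the PVH hashtag. It had 31 UMIs in 30 of 3767 ARC-hashtag nuclei (0.796%, interval 0.538% to 1.13%) and 11 UMIs in 11 of 3074 PVH-hashtag nuclei (0.358%, 0.179% to 0.639%). The levels were 1.59 CPM (1.08 to 2.26) and 0.657 CPM (0.328 to 1.18), a log2 ratio of PVH over ARC of -1.27 (-2.42 to -0.24). Of 19771 genes with at least 10 UMIs, 2.41% were lower in the PVH-hashtag nuclei by the same rule, at least 2-fold with an interval that excludes 0. With stricter hashtag assignment 4 UMIs were left against 10 and the log2 ratio was 0.05, so the direction turned.

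Within the ARC-hashtag neurons the AGRP-like and POMC-like clusters had the highest Mc3r levels. AGRP-like nuclei held 11 Mc3r UMIs in 11 nuclei, or 3.0 CPM (1.5 to 5.36), against 20 UMIs and 1.27 CPM in all other ARC-hashtag neurons. The log2 ratio was 1.24 (0.03 to 2.37), a 2.36-fold difference, and 3.04% of 18150 genes were higher by the same rule. POMC-like nuclei held 5 Mc3r UMIs at 3.04 CPM (0.986 to 7.09), a log2 ratio of 1.05 whose interval (-0.68 to 2.46) included 0. AGRP-like and POMC-like nuclei did not differ beyond counting error, at a ratio of 0.987 (0.316 to 3.62).

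AGRP-like nuclei made up 18.0% of the ARC-hashtag nuclei and 36.7% of those with an Mc3r UMI (11 of 30, interval 19.9% to 56.1%). KNDy-like and GHRH-like nuclei had 2 UMIs each, SST-like and dopaminergic-like nuclei 1 each, and VMH-like nuclei none, where 3 counts would be 2.79 CPM. The neurons outside the named classes had 9 Mc3r UMIs and 1.08 CPM (0.496 to 2.06). The interval of the AGRP-like difference included 0 in 9 of the 16 alternatives that gave one, and with stricter hashtag assignment, which left 1 UMI in AGRP-like nuclei, the log2 ratio was -1.28. Assignment by a ratio of the hashtags left 0 Mc3r UMIs in AGRP-like nuclei and 3 in the other ARC-hashtag neurons, so it gave no ratio.

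In PVH-hashtag neurons Mc3r was sparse and was found in 5 of the 14 clusters with a single UMI and in 2 with 3 UMIs. The Sim1-like clusters held 2 of its 11 UMIs (0.374 CPM, 0.0453 to 1.35) against 0.791 CPM in the other PVH-hashtag neurons, a log2 ratio of -1.08 with an interval of -4.33 to 1.19. Mc3r was also seen in barcodes that failed the filters. Their 11 UMIs gave 3.60 CPM (1.79 to 6.43) against 1.30 CPM in the nuclei that passed. These barcodes had a median depth of 652 UMIs but ranged from 500 to 32332 UMIs. Those with too few genes held the smaller part of the 11 UMIs, so the level is not one of shallow barcodes alone. The part of RNA outside the nuclei in the values by class was not tested.

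Mc4r did not differ between the hashtags beyond counting error. It had 15 UMIs in 15 ARC-hashtag nuclei (0.770 CPM, 0.431 to 1.27) and 18 UMIs in 17 PVH-hashtag nuclei (1.08 CPM, 0.638 to 1.70). The log2 ratio of PVH over ARC was 0.48, with an interval of -0.59 to 1.58, which spans ratios from 0.665 to 2.98.

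Within the PVH-hashtag neurons most Mc4r UMIs lay in the Sim1-like clusters. These 921 nuclei held 12 of the 18 UMIs, in 11 nuclei, at 2.24 CPM (1.16 to 3.92), and the other 2153 neurons held 6 at 0.527 CPM. The log2 ratio was 2.09 (0.56 to 3.79), or 4.26-fold, and 2.87% of 17960 genes were higher by the same rule. Sim1-like nuclei were 29.96% of the PVH-hashtag nuclei and 64.7% of those with an Mc4r UMI (38.3% to 85.8%).

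The Mc4r UMIs were not even among the 6 Sim1-like clusters, but the counts were too low to separate them. Cluster 4 held 5 (3.48 CPM, 1.13 to 8.13), clusters 10 and 12 held 3 each (4.11 and 5.12 CPM), cluster 6 held 1, and clusters 11 and 14 held none. Cluster 8, which stayed unnamed despite its Sim1 level, held none, and counting it as Sim1-like gave a log2 ratio of 1.67 (0.14 to 3.37). Outside them, PVH cluster 1 held 4 UMIs (1.54 CPM, 0.420 to 3.94), with Sim1 at 79.0 CPM. Slc17a6 and Slc32a1 are the vesicular glutamate and GABA transporter genes. By transmitter, the 10 of 14 PVH-hashtag clusters with more Slc17a6 than Slc32a1 held 17 of the 18 Mc4r UMIs. The levels were 1.44 CPM against 0.202 CPM, a 7.16-fold difference with an interval of 1.12 to 299, and the lower level rests on 1 UMI. The share of all genes that differed as much between these clusters is not given. The Sim1-like clusters, which all had more Slc17a6, held 12 of the 17 UMIs. In ARC-hashtag neurons Mc4r had 5 UMIs (0.638 CPM) in clusters with more Slc17a6 and 10 (0.864 CPM) in the others.

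The Sim1-like difference kept its direction in all 19 alternatives that gave a value, from 0.77 to 2.22 in log2 units, but its interval included 0 in 5 of the 17 that gave one. Keeping the members among the variable genes left the same nuclei and repeats the reported value. Assignment by a ratio of the hashtags gave no value, since it left 0 Mc4r UMIs in Sim1-like nuclei and 2 in the other PVH-hashtag neurons. Clustering all nuclei without the hashtag step gave the log2 ratio 0.81 (-0.32 to 1.83), from 11 UMIs in Sim1-like nuclei and 33 in other neurons.

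In ARC-hashtag nuclei Mc4r was spread thinly. AGRP-like nuclei had 3 UMIs (0.818 CPM, 0.169 to 2.39) against 0.763 CPM in the other ARC-hashtag neurons, a log2 ratio of 0.10 with an interval of -2.36 to 1.99. No Mc4r UMI was found in POMC-like nuclei, where 3 counts would be 1.82 CPM, and the other ARC-hashtag neurons were at 0.845 CPM, below that limit, so a difference was not detectable at this depth. ARC cluster 10, led by Tbx19 and Pirt, had the highest level at 3 UMIs (3.06 CPM, 0.631 to 8.94), 4.70-fold over the other ARC-hashtag neurons with an interval of 0.851 to 17.4.

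**Figure D1:**
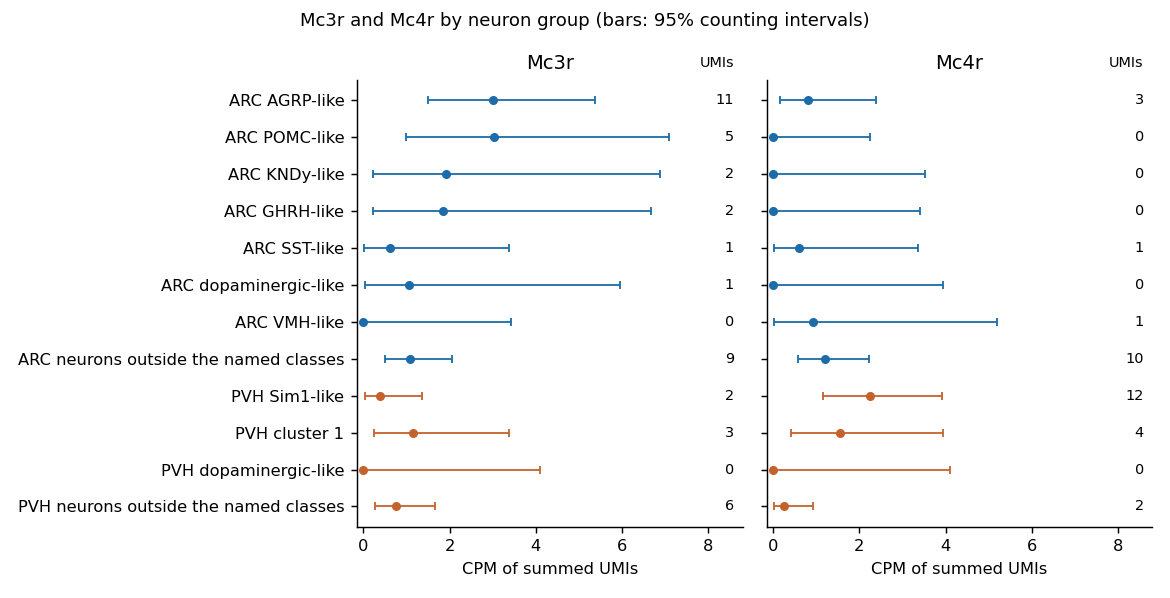
Levels of Mc3r and Mc4r in CPM of summed UMIs (horizontal axis) in neuron groups of the ARC hashtag (blue) and PVH hashtag (orange); points are levels, bars are exact 95% counting intervals, and the number at the right is the UMI count. Mc3r points are highest in AGRP-like (3.0 CPM) and POMC-like (3.04 CPM) nuclei and the Mc4r point is highest in Sim1-like nuclei (2.24 CPM), with wide and overlapping intervals.

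Nuclei were also split by Sim1 itself, without clusters. Among PVH-hashtag nuclei 885 had a Sim1 UMI, and they held 12 Mc4r UMIs (2.21 CPM, 1.14 to 3.87) against 6 in the 2189 nuclei without one (0.530 CPM). The log2 ratio was 2.06 (0.54 to 3.76), or 4.17-fold, where 1.88% of 17960 genes were higher and 2.68% lower by the same rule. With the Sim1-like clusters left out, 1 UMI was left against 5 and the log2 ratio was 0.27.

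The other nuclei gave fewer counts. Among ARC-hashtag nuclei Mc4r had 2 UMIs in the 109 nuclei with a Sim1 UMI and 13 in the 3658 without, 4.21-fold with an interval of 0.461 to 18.6. In nuclei with both hashtags it had 4 and 3 UMIs, 4.23-fold with an interval of 0.716 to 28.9. In nuclei left unassigned by the hashtags it had none in 375 nuclei with a Sim1 UMI and 5 in 2010 without. Over all nuclei that passed the filters the counts were 18 and 27, or 3.04-fold (1.58 to 5.72), and outside the PVH hashtag they were 6 and 21, or 2.34-fold (0.773 to 5.99).

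Pooled over all nuclei that passed the filters, Mc3r had 4 UMIs in 1545 nuclei with a Sim1 UMI and 62 in 8625 without, 0.294-fold (0.0777 to 0.791). The hashtags were unequal in this pool. Of the 1545 nuclei, 885 had the PVH hashtag, where Mc3r was lower than with the ARC hashtag, and 109 had the ARC hashtag. The share of all genes that differed as much in the pool is not given. In the PVH-hashtag nuclei alone Mc3r had 1 and 10 UMIs, a log2 ratio of -2.26 whose interval (-7.70 to 0.55) included 0.

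**Figure D2:**
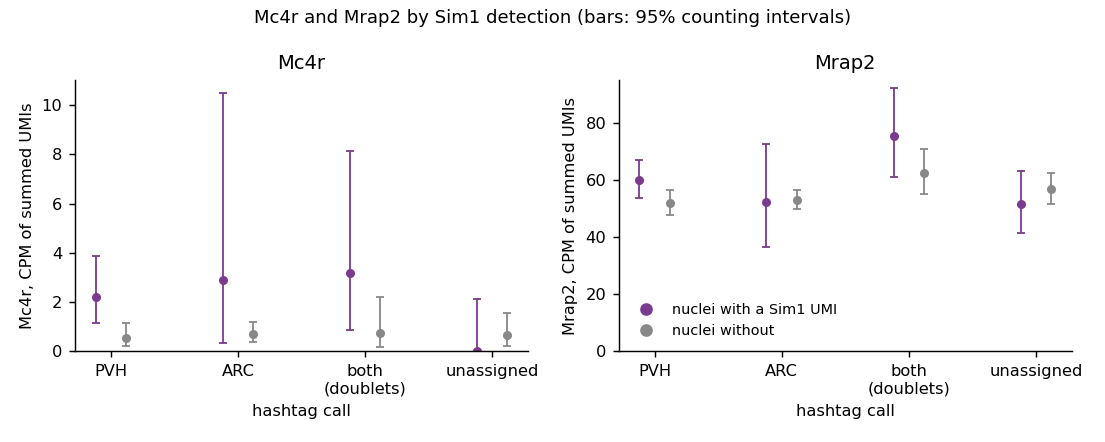
Mc4r and Mrap2 levels in CPM of summed UMIs (vertical axes) in nuclei with a Sim1 UMI (purple) and without (grey), by hashtag call; bars are exact 95% counting intervals. Mc4r is higher with Sim1 in the PVH-hashtag nuclei (2.21 against 0.530 CPM) and has no UMI in unassigned nuclei with Sim1, while Mrap2 lies between 51.5 and 75.6 CPM in every group shown.

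With the study's hashtag assignment Mrap2 differed between the hashtags by less than counting error. It had 1034 UMIs in 841 ARC-hashtag nuclei (53.0 CPM, 49.9 to 56.4) and 915 UMIs in 723 PVH-hashtag nuclei (54.7 CPM, 51.2 to 58.3). The log2 ratio was 0.04 (-0.09 to 0.17). Assignment by a ratio of the hashtags left 73 PVH and 192 ARC UMIs and turned the direction, with a log2 ratio of -0.59 whose interval (-1.0 to -0.2) excluded 0. Thinned to 1000 UMIs per nucleus, 5.34% and 5.43% of nuclei had an Mrap2 UMI.

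The Mrap2 levels of single clusters are given as a description. Over the 27 neuron clusters it ran from 31.6 CPM (22.6 to 43.1) in ARC cluster 6 to 99.7 CPM (77.2 to 127) in ARC cluster 13, the extremes of the order. None of the 26 pairs of neighbours differed beyond counting error, but neighbours in a sorted order are the closest pairs by construction.

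In the ARC-hashtag neurons GHRH-like nuclei, whose neurons are known for driving growth hormone release, had 98.0 CPM of Mrap2 (80.2 to 119), 1.94-fold over the other neurons (1.57 to 2.37). They had a UMI in 36.8% of nuclei (30.1% to 43.8%). ARC cluster 13, led by Cgnl1 and Abca6, was 1.93-fold over the others (1.49 to 2.48). KNDy-like nuclei, known for kisspeptin, neurokinin B and dynorphin, were at 69.6 CPM (1.33-fold, 1.03 to 1.69), and dopaminergic-like nuclei were at 68.3 CPM (1.3-fold, 0.994 to 1.68).

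SST-like nuclei had less Mrap2, 34.5 CPM (0.627-fold, 0.472 to 0.820), as did clusters 6 (0.578-fold, 0.410 to 0.793) and 7 (0.656-fold, 0.475 to 0.885). AGRP-like nuclei were at 46.6 CPM (39.9 to 54.1) against 54.8 CPM, a log2 ratio of -0.23 whose interval (-0.48 to 0.01) reached 0. The ratio was below 0 in all 19 alternatives that gave a value, and the interval excluded 0 in 9 of the 17 that gave one. Of these, keeping the members among the variable genes and dropping the leading-gene rule left the same AGRP-like nuclei and repeat the reported value. POMC-like nuclei were at 56.5 CPM (45.6 to 69.2), a log2 ratio of 0.09 with an interval of -0.23 to 0.40. None of these differences reached 2-fold.

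In the PVH-hashtag neurons Sim1-like nuclei as a whole had 59.4 CPM of Mrap2 (53.1 to 66.3) against 52.4 CPM, a log2 ratio of 0.18 with an interval of -0.02 to 0.38. The 6 clusters behind that value lay apart. Cluster 10 was at 85.0 CPM (1.53-fold over the other Sim1-like nuclei, 1.14 to 2.03) and cluster 6 at 79.2 CPM (1.48-fold, 1.16 to 1.89). Cluster 4 was at 42.5 CPM (0.647-fold, 0.481 to 0.858) and cluster 11 at 33.5 CPM (0.523-fold, 0.339 to 0.777).

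Clusters 12 and 14 were at 73.4 and 48.0 CPM of Mrap2, with intervals of their ratios that included 1. Among the Sim1-like clusters, Oxt was a passing marker of cluster 11, Trh of cluster 12 and Avp of cluster 14. Nos1 passed in clusters 11 and 12, at 33.5 and 73.4 CPM of Mrap2, and Crh in clusters 4 and 6, at 42.5 and 79.2 CPM. The oligodendrocyte-marked PVH cluster 2 was at 42.8 CPM (0.758-fold over the other neurons, 0.604 to 0.942).

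**Figure D3:**
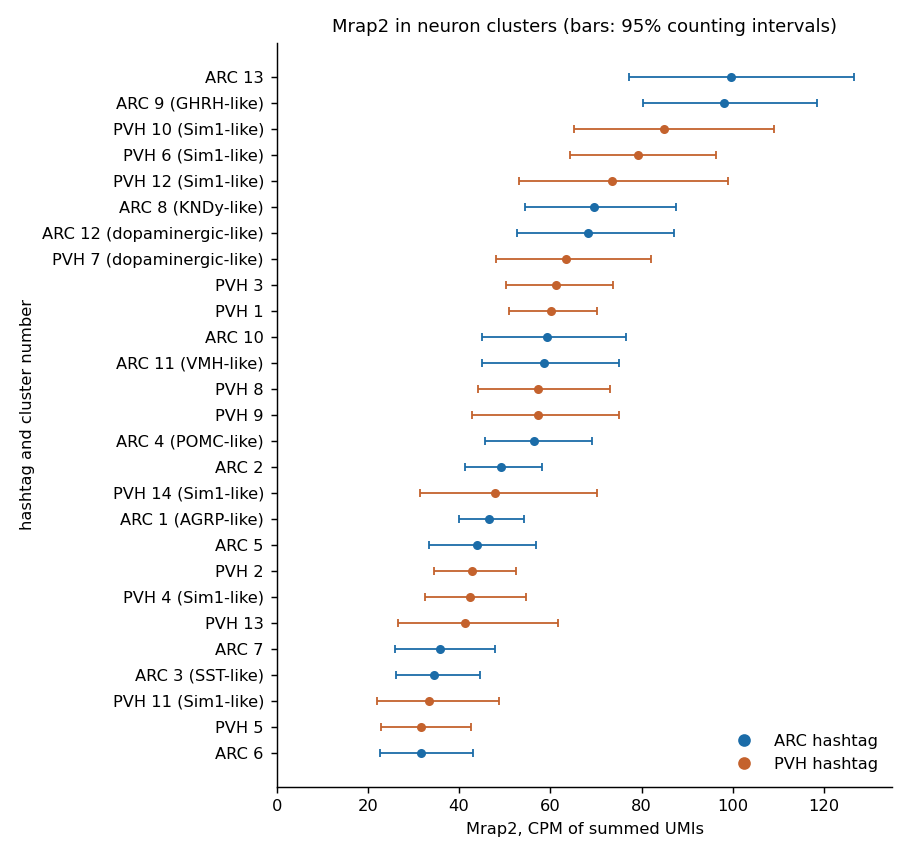
Mrap2 level in CPM of summed UMIs (horizontal axis) in each of the 27 neuron clusters, ordered by level, for the ARC hashtag (blue) and PVH hashtag (orange); bars are exact 95% counting intervals. Levels run from 31.6 to 99.7 CPM, with the Sim1-like clusters from 33.5 CPM (PVH cluster 11) to 85.0 CPM (PVH cluster 10).

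Mrap2 was close to even between transmitter groups. Clusters with more Slc17a6 had 52.6 CPM and those with more Slc32a1 53.6 CPM in ARC-hashtag neurons (0.981-fold, 0.864 to 1.11), and 55.5 and 52.8 CPM in PVH-hashtag neurons (1.05-fold, 0.909 to 1.22). Dopaminergic-like nuclei were at 63.4 CPM with the PVH hashtag and 68.3 CPM with the ARC hashtag (0.928-fold, 0.638 to 1.35). In PVH-hashtag nuclei with a Sim1 UMI Mrap2 was at 60.1 CPM against 52.1 CPM without one, a log2 ratio of 0.21 (0.01 to 0.41), and in unassigned nuclei the log2 ratio of the same split was -0.14.

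**Figure D4:**
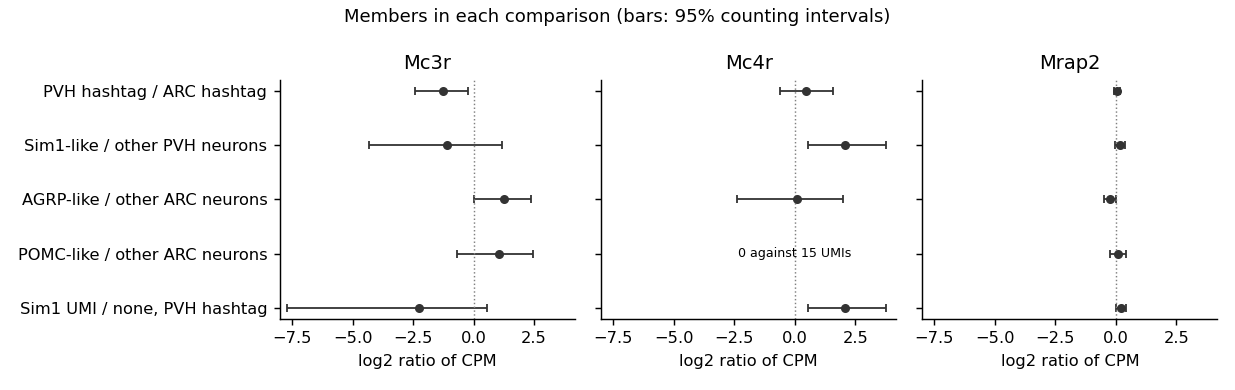
Log2 ratios of CPM (horizontal axis) of the 3 genes in the 5 comparisons; bars are exact 95% counting intervals and the dotted line marks no difference. Mc3r lies below 0 for PVH over ARC and above 0 for AGRP-like, Mc4r lies above 0 in both Sim1 comparisons, and Mrap2 stays near 0; Mc4r in POMC-like nuclei has no ratio, since it had 0 UMIs there.

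The genes whose levels over the 27 neuron clusters were most like those of Mrap2 were Gm45411 (Pearson r = 0.66), Ube2ql1 (0.65), Grina (0.63), Ogfrl1 (0.59) and Klf3 (0.58), out of 11162 genes with at least 300 UMIs. The r is across clusters of 1 library on log2(CPM + 10) values and is given as a description. Mc3r and Mc4r, with 42 and 33 UMIs in these clusters, were below the minimum and have no such list.

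The nuclei that carried a receptor were compared with the rest for the other member genes and for markers. The genes named in these comparisons were picked from a longer list of markers and pathway genes. The share of all genes that differed as much between the same nuclei is not given, so the ratios are a description. In PVH-hashtag nuclei the 17 with an Mc4r UMI had 217 CPM of Sim1 against 108 CPM in the other 3057 (2.01-fold, 1.29 to 3.0), and 11 of them had a Sim1 UMI (64.7%, 38.3% to 85.8%, against 28.6%). Their medians were 6134 and 5033 UMIs per nucleus. Mrap2 was at 90.6 CPM in these 17 nuclei, in 8 of them, against 54.4 CPM (1.66-fold, 0.795 to 3.07).

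Over all nuclei that passed the filters, Mrap2 was at 71.4 CPM in the 44 Mc4r nuclei against 55.3 CPM in the rest (1.29-fold, 0.788 to 2.0), and 17 of the 44 had both. Bdnf, a neurotrophin gene with a place downstream of MC4R, was at 39.3 against 9.55 CPM (4.11-fold, 2.04 to 7.43) from 11 UMIs in 7 nuclei, and 2 ARC-hashtag nuclei held 6 of these UMIs. In the PVH-hashtag nuclei alone its ratio was 2.62 (0.708 to 6.80). Slc17a6 was 1.69-fold higher (1.13 to 2.43) and Trh, which encodes thyrotropin-releasing hormone, 2.02-fold higher (1.19 to 3.20). The intervals of both included 1 in either hashtag alone. Oxt and Avp, peptide genes with a UMI in most nuclei, were 1.43-fold (1.26 to 1.61) and 1.47-fold (1.24 to 1.73) higher over all nuclei, but the pooled values did not hold within the hashtags. Oxt was at 0.632-fold (0.432 to 0.893) in ARC-hashtag nuclei and 0.956-fold (0.737 to 1.22) in PVH-hashtag nuclei, and Avp at 1.01-fold (0.669 to 1.46) and 1.03-fold (0.728 to 1.43).

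In ARC-hashtag nuclei the 30 with an Mc3r UMI had 108 CPM of the leptin receptor gene Lepr against 45.2 CPM in the rest (2.39-fold, 1.43 to 3.75). Pomc was at 273 against 163 CPM (1.67-fold, 1.23 to 2.22), but it had a UMI in 12 of the 30 (40.0%) against 44.5% of the rest, so the share of nuclei was not higher with the level. Mrap2 had 2 UMIs in these nuclei, 11.4 against 53.4 CPM (0.213-fold, 0.0257 to 0.771), but over all nuclei that passed the filters it was at 39.7 against 55.5 CPM (0.716-fold, 0.391 to 1.2). The 15 ARC-hashtag nuclei with an Mc4r UMI had 134 against 45.4 CPM of Lepr (2.95-fold, 1.52 to 5.18).

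Genes of the pathway were read from 6 lists with 38 genes, of which 34 had at least 10 UMIs in the PVH and ARC comparison. Of these 34, 1 was higher and 3 were lower in PVH-hashtag nuclei, against 3.18% and 2.41% of all genes. The share that was lower is above that of all genes, but rests on 3 genes. All of the called genes were on the list of downstream and partner receptors. Bdnf was higher, at 14.0 against 6.00 CPM. Lepr was lower in the PVH-hashtag nuclei, at 10.0 against 45.8 CPM, as did Ghsr, the ghrelin receptor gene, at 0.299 against 1.69 CPM, and Brs3, a bombesin-like receptor gene, at 1.73 against 4.00 CPM. Pomc was at 90.3 against 164 CPM and Agrp at 152 against 174 CPM, neither past 2-fold. Gnas, which encodes the Gs subunit the receptors couple to, was at 1288 against 1157 CPM, and Kcnj13, a potassium channel gene tied to MC4R signalling, at 18.8 against 20.3 CPM.

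In Sim1-like nuclei 3 of 33 measured pathway genes were higher and 2 lower than in the other PVH-hashtag neurons, against 2.87% and 5.02% of all genes. Pcsk1, the prohormone convertase that begins the processing of POMC, was at 81.7 against 24.8 CPM (log2 ratio 1.72, 1.5 to 1.94). Glp1r, the GLP-1 receptor gene, was at 8.22 against 2.46 CPM (1.74, 1.03 to 2.48). Mc1r, the melanocortin receptor of pigment cells, had 8 against 3 UMIs (2.50, 0.45 to 5.05). Bdnf, at 7.10 against 17.2 CPM, and Brs3, at 2 against 27 UMIs, were lower. These values depend on the naming of clusters, since PVH cluster 8, with Bdnf among its leading genes and Brs3 among its passing markers, was kept out of the Sim1-like class and so lay in the group compared with it. In the split by Sim1 UMIs 2 of the 33 pathway genes were higher and 0 were lower, against 1.88% and 2.68% of all genes. Of these, 1 was a gene of ligand processing and 1 a downstream or partner receptor gene, while Mc1r was not called. The other members of the receptor family had few UMIs: Mc2r and Mc5r had 4 UMIs each in PVH-hashtag nuclei and 2 each in ARC-hashtag nuclei, and Mrap, the accessory protein of the adrenal receptor, had 3 and 5.

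In AGRP-like nuclei 2 of 34 pathway genes were higher and 2 lower, against 3.04% and 5.55% of all genes. Lepr was at 115 against 29.9 CPM and Ghsr at 3.27 against 1.33 CPM, a log2 ratio of 1.29 (0.14 to 2.38). Atrnl1, a relative of attractin, which is an accessory receptor in melanocortin signalling, was at 43.6 against 177 CPM, and Glp1r at 1.36 against 7.75 CPM. In POMC-like nuclei 4 were higher and 1 lower, against 2.53% and 3.47%. Pomc, a marker that named the class, was at 800 against 105 CPM, and Atrnl1 was at 302 against 138 CPM, the opposite direction from AGRP-like nuclei. Lepr and Glp1r were also higher, and the adenylyl cyclase gene Adcy1 was lower, at 1.82 against 10.4 CPM.

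**Figure D5:**
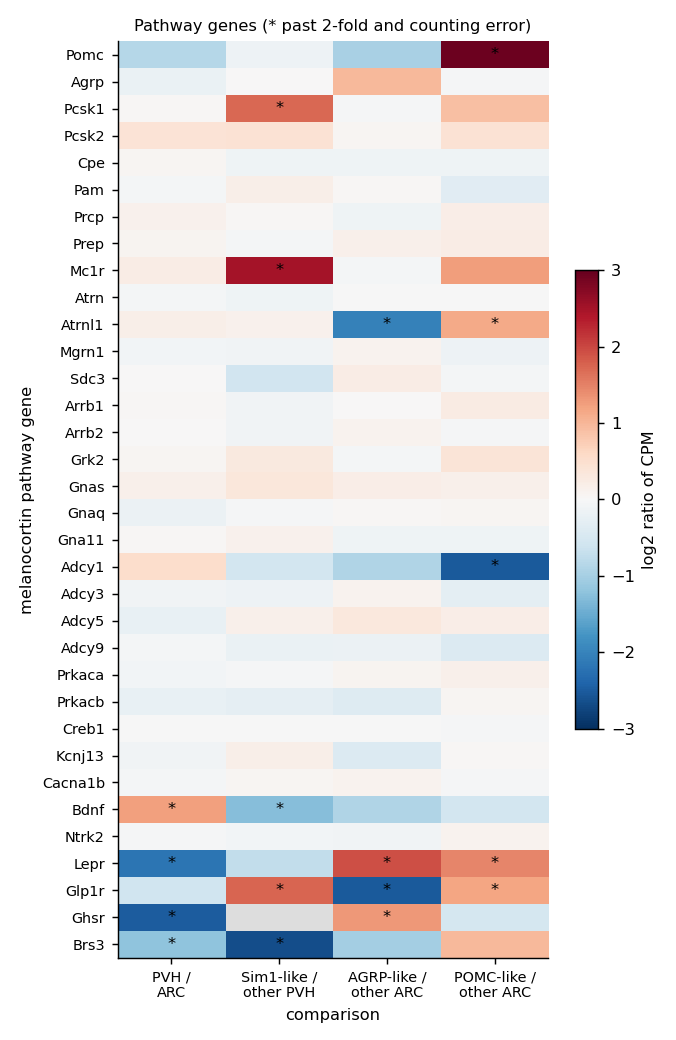
Log2 ratios of CPM (colour) of pathway genes (rows) in 4 comparisons (columns); an asterisk marks a ratio past 2-fold with a counting interval that excludes 0, and grey marks fewer than 10 UMIs. Receptor signalling genes are pale in every column apart from Adcy1 in POMC-like nuclei, and Lepr, Glp1r, Ghsr, Brs3, Bdnf and Atrnl1 carry most asterisks.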

How the data were processed

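Nuclei were isolated from frozen hypothalamus, stained for NeuN and with hashtag antibodies, sorted and run on the 10x platform. The authors deposited raw UMI counts per gene and barcode, with both hashtag counts as rows of the same matrix. The submitters' processing notes give Cell Ranger 5.0, Seurat 4 and mm10, though the matrix itself was written by Cell Ranger 4.0.0. The filters of the study were applied (over 800 and under 5000 genes, no more than 1% mitochondrial UMIs and 12000 UMIs, genes in 3 or more nuclei), and hashtags were assigned at a positive quantile of 0.8, which also removed 944 nuclei with both hashtags. Doublets within a hashtag were not called. Counts were scaled to 10000, and each hashtag was clustered on 2000 variable genes and 30 components at a Leiden resolution of 0.55 with Seurat 5.3.0, leidenbase 0.1.32 and R 4.3.3. A neuron cluster was named when the leading marker of a list and a minimum of 3 markers stood 1.5-fold over other neurons with 3 or more UMIs each, no other class had more markers among its 10 leading genes, and it did not hold 4 markers of a non-neuronal type.

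UMIs were summed per group with Python 3.11.15 and scipy 1.17.1 and given as CPM with exact Poisson intervals, shares with exact Clopper-Pearson intervals, and ratios with exact binomial intervals at 95%. All cover counting error only, in 1 sample, so no p-value is given. Total UMIs per nucleus ranged from 997 to 11970 with the PVH hashtag and from 1022 to 11956 with the ARC hashtag. For thinning, 5 nuclei under 1000 UMIs were left out. The ratio step was tested on simulated data. The genes named are the members, the genes of the lists of markers, pathway genes and co-detected genes, and for each member the 5 genes most like it over neuron clusters. The members, lists and thresholds were chosen with earlier results of these data known. Asip, on the ligand list, was not analysed here.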

Additional observations from a re-analysis of the deposited data

How the results depend on the processing

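All values are log2 ratios of CPM, with no test, and an alternative was held the same when it fell within the counting interval of the reported value, as 194 of 205 did. That count is no measure of stability, since wide intervals are easily met. For Mc4r in AGRP-like nuclei all 17 alternatives were held the same, with 8 above 0 and 9 below. Keeping the members among the variable genes could not change the clusters, since none was among them. A positive quantile of 0.99 gave 0.049 for Mc3r and -0.15 for Mrap2 between the hashtags, -0.41 for Mrap2 in Sim1-like nuclei and -1.28 for Mc3r in AGRP-like nuclei. Assignment by a hashtag ratio gave 0.80 for Mc3r and -0.59 (interval -1.0 to -0.2, without 0) for Mrap2 between the hashtags, and -0.33 for Mrap2 in Sim1-like nuclei. Thinning to 1000 UMIs gave -0.092 for Mrap2 in Sim1-like nuclei. In the split by Sim1 UMIs, leaving out Sim1-like clusters gave 0.27 for Mc4r and 0.41 for Mrap2, and unassigned nuclei, an alternative chosen after seeing the data, gave -0.14 for Mrap2. Both strict assignments left fewer nuclei, and otherwise the cause was not tested. Clustering without the hashtag step, without the leading-gene rule and without the mixed clusters were also chosen after seeing the data. No ratio was given where a group had 0 UMIs, as for Mc4r in POMC-like nuclei, and with markers at 2-fold no cluster was AGRP-like. Of the 5 genes most like Mrap2, all 5 were shared with a pseudocount of 1, and 2 with a minimum of 1000 UMIs. Low counts of both receptors limit every comparison of them. No paired analysis was possible because all nuclei come from 1 pooled library with no replicate numbers.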

Other observations

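Nuclei outside the comparisons held the 3 genes too. In the 944 nuclei with both hashtags Mc3r was at 2.48 CPM (1.32 to 4.24), Mc4r at 1.33 CPM (0.536 to 2.75) and Mrap2 at 65.8 CPM (59.0 to 73.1). In the 2385 unassigned nuclei they were at 1.2 CPM (0.598 to 2.14), 0.545 CPM (0.177 to 1.27) and 55.8 CPM (51.0 to 60.8). In the 1239 barcodes that failed the filters they were at 3.60 CPM (1.79 to 6.43), 1.31 CPM (0.356 to 3.35) and 67.3 CPM (58.4 to 77.2). Of these barcodes 1041 had at most 800 genes, with Mc3r at 5.75 CPM from 4 UMIs and Mrap2 at 84.9 CPM from 59 UMIs.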
